A study of Mus musculus with 7 samples.

Results

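The 8 genes described here, called members below, encode histone chaperones, the proteins that carry newly made or displaced histones and hand them to DNA. They were listed by name, with earlier results of these data already known, and were found by symbol among the 29267 genes of each expression table. They are Chaf1a and Chaf1b, the large and middle subunits of chromatin assembly factor 1 (CAF-1), Asf1a, Asf1b and Nasp, which hold histones H3 and H4 before deposition, and Hira, Daxx and Atrx, which place the variant histone H3.3. All 8 were present at a TPM of 1 or more (transcripts scaled to library total and length) in each of the 7 libraries, so none was lost to a filter on low values.

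RNA was sequenced from 7 mouse cultures, with 1 library for each group. The first 4 came from mouse embryonic fibroblasts of the OG2 line, whose Oct4 promoter transgene (without the proximal enhancer) drives GFP, at passage 0. These fibroblasts had all received retroviruses for Oct4, Sox2, Klf4 and c-Myc, were reprogrammed in the conventional serum-based mES medium or in the serum-free 5C medium, which contains bFGF, and were then sorted on GFP into GFP+ and GFP- cells (mES-Oct4GFP+ and mES-Oct4GFP-, or 5C-Oct4GFP+ and 5C-Oct4GFP-). The 5C-Oct4GFP+ cells were also cultured in naive or primed medium for 20 passages, which gave 5C-Oct4GFP+ (naive) and 5C-Oct4GFP+ (primed), and the embryonic stem cell line R1, which was not made by reprogramming, was kept in primed culture for 20 passages as R1 ESCs-primed. A sort on the transgene reports activity of that promoter and not pluripotency itself, and the GFP- gate could hold any cell that had not switched the transgene on.

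CAF-1 rides with the replication clamp PCNA and places H3-H4 behind the replication fork, so its subunits are most needed in S phase. ASF1 passes H3-H4 to CAF-1 in replicating cells and to HIRA outside replication, NASP shelters the soluble H3-H4 pool, and HIRA, DAXX and ATRX place H3.3 at genes, telomeres and repeats without copying DNA. CAF-1 is known as a barrier to reprogramming, since lowering it eases the change of fibroblasts into pluripotent cells.

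Total expected counts per library lay between 6108252 and 11496615, and counts of single members between 98 and 11744.7. Because each group was 1 library, differences between groups have no replicate check, no test was made and no p-value is given. Intervals in brackets are exact 95% intervals (Poisson for a level, Clopper-Pearson for a ratio of 2 libraries) and cover counting error only. A difference of at least 2-fold means 1 or more on the log2(TPM + 1) scale, counted among genes that reached 1 TPM in either of the libraries compared. In bulk RNA, fewer cells of a type and less RNA per cell cannot be told apart. The labelled states were checked on marker lists. The summed TPM of 7 pluripotency markers was 119.3 in the GFP- cells of mES medium and 449.6 in those of 5C medium, 1260 and 1395 in the 2 primed libraries and 5439 to 7280 in the other 3, and Zfp42 was listed at 0 in 5C-Oct4GFP+ (primed). Much of this gap was Dppa5a, at 3630.77 to 4714.1 TPM in those 3 and 0.87 and 143.4 in the primed libraries. The median of the 7 markers was 118.5 and 131.0 in the primed libraries, 233.0 to 252.9 in the other 3, and 17.11 and 55.79 in the GFP- cells of mES and 5C medium. The summed TPM of 6 fibroblast markers was 482.9 and 238.8 in the GFP- cells of mES and 5C medium, 66.36 after primed conversion, 184.8 in R1 ESCs-primed and 8.07 to 13.29 elsewhere. The labels give fibroblast as the cell type of all OG2 libraries, which the low fibroblast sums of the GFP+ and naive cells go against. MEF feeder cells were used for primed induction of R1, and their part in its fibroblast sum was not tested.

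The promoters of the CAF-1 pair and of the ASF1 pair are shown because the CAF-1 genes had like profiles over the libraries and the ASF1 genes did not. Each line is the RefSeq window on GRCm38.p6 from 250 bases before the start site to 50 bases into the gene, all on the plus strand. The windows are chr17:56040166-56040465 for Chaf1a, chr16:93883651-93883950 for Chaf1b, chr10:53596711-53597010 for Asf1a and chr8:83955444-83955743 for Asf1b. Capitals mark matches to CCAAT or its complement ATTGG, the box bound by NF-Y, and to the letters TTTGAA of the cell cycle homology region (CHR), an element of genes that peak late in the cell cycle.
Chaf1a: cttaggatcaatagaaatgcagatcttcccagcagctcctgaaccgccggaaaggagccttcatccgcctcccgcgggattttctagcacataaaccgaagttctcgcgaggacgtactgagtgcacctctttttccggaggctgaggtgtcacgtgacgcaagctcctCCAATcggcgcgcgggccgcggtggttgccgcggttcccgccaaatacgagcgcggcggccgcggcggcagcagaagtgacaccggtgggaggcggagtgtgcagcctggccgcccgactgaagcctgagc
Chaf1b: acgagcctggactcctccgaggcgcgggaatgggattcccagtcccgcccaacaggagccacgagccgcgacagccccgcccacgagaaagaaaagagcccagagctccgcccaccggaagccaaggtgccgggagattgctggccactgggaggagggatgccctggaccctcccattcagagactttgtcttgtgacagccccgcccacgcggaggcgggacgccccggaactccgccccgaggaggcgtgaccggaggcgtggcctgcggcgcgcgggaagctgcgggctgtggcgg
Asf1a: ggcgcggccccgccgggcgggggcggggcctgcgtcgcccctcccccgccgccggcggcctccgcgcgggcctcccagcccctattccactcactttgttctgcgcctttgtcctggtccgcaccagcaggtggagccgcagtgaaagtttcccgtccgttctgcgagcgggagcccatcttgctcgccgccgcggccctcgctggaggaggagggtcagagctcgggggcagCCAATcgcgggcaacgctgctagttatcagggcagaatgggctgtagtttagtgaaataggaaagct
Asf1b: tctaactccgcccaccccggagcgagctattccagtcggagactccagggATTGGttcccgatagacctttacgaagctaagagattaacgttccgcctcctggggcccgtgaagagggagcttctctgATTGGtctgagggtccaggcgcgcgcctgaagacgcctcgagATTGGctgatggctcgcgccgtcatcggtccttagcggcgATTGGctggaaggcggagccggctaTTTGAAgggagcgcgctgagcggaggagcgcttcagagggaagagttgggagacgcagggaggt

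Asf1b and Asf1a differed in these letters. The Asf1b window held CCAAT 4 times, at -200, -121, -79 and -39 from the start site, and TTTGAA once at -14. The Asf1a and Chaf1a windows held 1 CCAAT each, at -17 and -81, and the Chaf1b window held neither motif. Of the other members, Atrx had 4 CCAAT, Nasp had 2 CCAAT and 1 TTTGAA, Daxx had 1 CCAAT in the first of its 3 windows and Hira had neither. Over all 32851 windows of this length, 37.4% held CCAAT on either strand, 1.06% held it 4 or more times and 17.9% held TTTGAA. The E2F letters TTTCCCGC, TTTCGCGC, TTTGCCGC and TTTGGCGC were searched on both strands, occurred in 2.26% of windows and matched in no member. Other forms of the E2F site were not searched, so the absence says only that these letters are not in these windows.

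The mES-Oct4GFP- library was the lowest of the 7 for every member but Atrx. These were the same 7 genes on TPM, on FPKM and on reads scaled to the library total without length (CPM), a scale added after seeing the data. The share of all genes that were lowest in this library was not worked out, so the count has no background. The highest level exceeded the lowest by 4.54-fold for Nasp, 4.5-fold for Chaf1b, 3.67-fold for Asf1b, 2.93-fold for Asf1a, 2.79-fold for Chaf1a, 2.43-fold for Daxx, 2.14-fold for Atrx and 2.02-fold for Hira. Among the 11020 genes at 1 TPM or more in every library, the median of this ratio was 2.63, and 74.0% of them had a smaller ratio than Nasp and 30.9% a smaller one than Hira. The members therefore spanned the ordinary range of expressed genes.

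**Figure D1:**
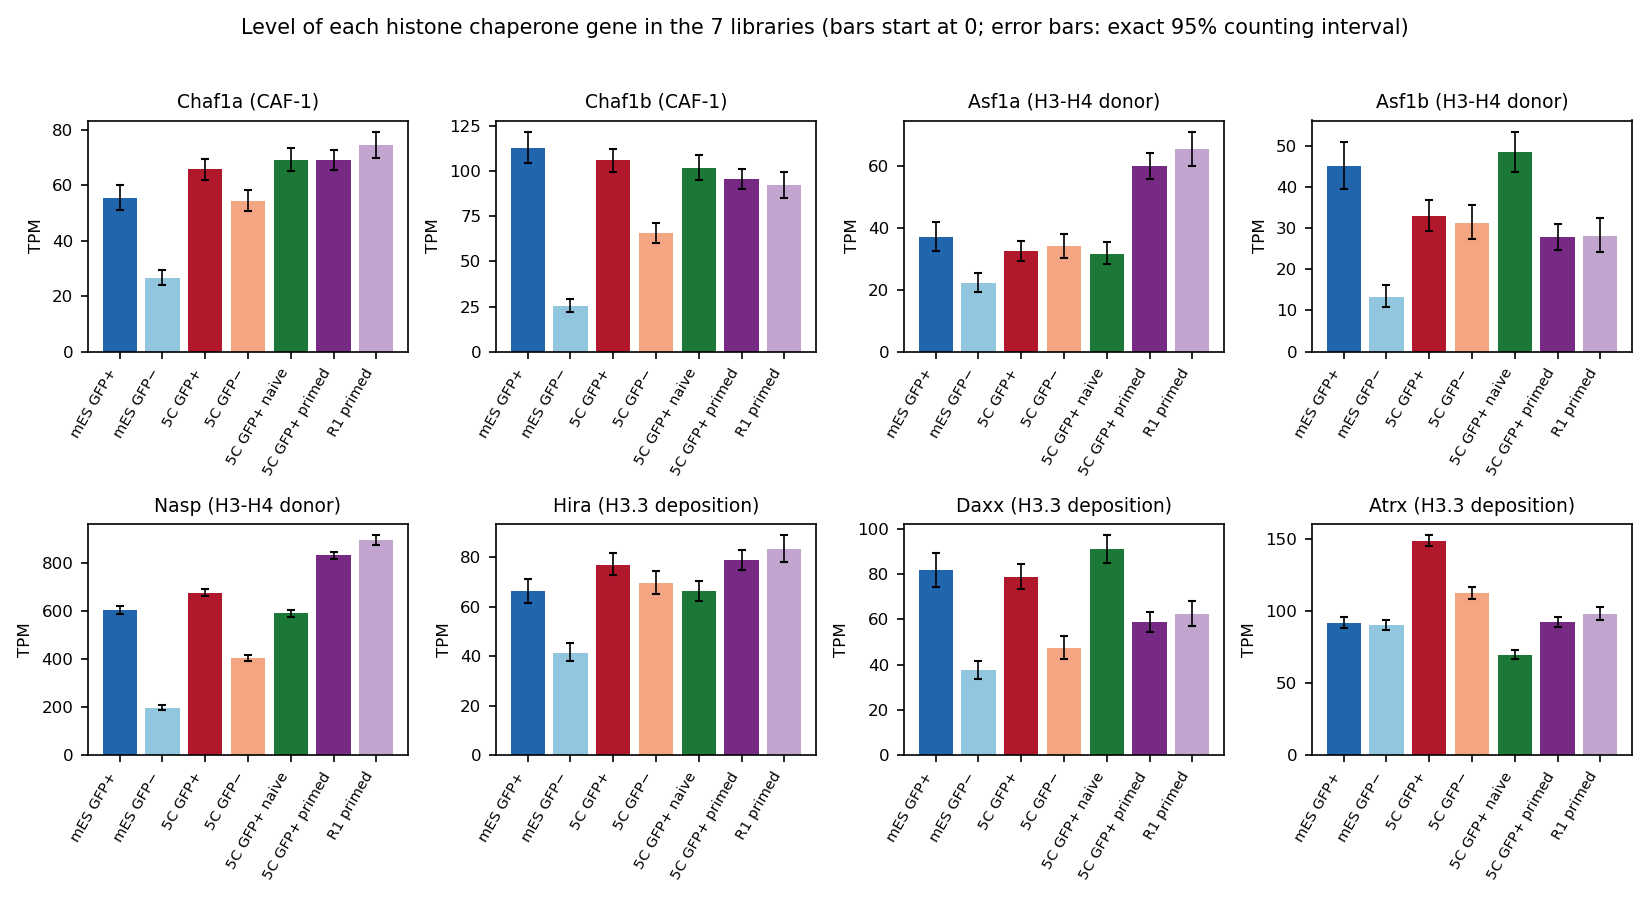
TPM of the 8 members (y axis, from 0) in the 7 libraries (x axis), with bars for the single library of each group and error bars for the exact 95% counting interval. The light blue mES-Oct4GFP- bar is the lowest for 7 members, Atrx is highest in 5C-Oct4GFP+ at 149.07 TPM, and Asf1a is highest in both primed libraries at 59.83 and 65.27 TPM.

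Chaf1a, the CAF-1 subunit that binds PCNA, lies at chromosome 17, 56040439 to 56072289, on the plus strand (GRCm38, GENCODE M21, as for all gene positions here). Its level was 55.31 TPM in GFP+ and 26.61 in GFP- cells from mES medium, 65.63 in GFP+ and 54.28 in GFP- cells from 5C medium, 69.18 after naive and 68.98 after primed conversion, and 74.33 in R1 ESCs-primed. Chaf1a was thus low in a single library, and the other 6 lay between 54.28 and 74.33 TPM. The neighbours in that order differed beyond counting error only from 5C-Oct4GFP+ to mES-Oct4GFP+ and from 5C-Oct4GFP- to mES-Oct4GFP-. In M21 its transcript overlaps exons of Ubxn6 on the opposite strand, but that model is 5535 bases long against 3308 in the expression tables, so the overlap of the models behind these counts is not known. Its reads were partly split between genes in all 7 libraries. Ubxn6 was highest in mES-Oct4GFP- at 66.13 TPM, the library where Chaf1a was lowest, and reads of any shared bases cannot be told apart by strand if the library kit does not mark it.

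Chaf1b, the WD-repeat subunit of CAF-1, lies at chromosome 16, 93883901 to 93906115, on the plus strand. It was at 113.25 TPM (GFP+) and 25.18 (GFP-) for mES medium, 106.17 (GFP+) and 65.59 (GFP-) for 5C medium, 101.98 for naive-converted and 95.78 for primed-converted cells, and 92.36 for R1 ESCs-primed. The 5 pluripotent libraries lay close together, and the intervals of the ratios between neighbours in their order all held 1. Libraries further apart in that order were not all level. Primed-converted cells were at 0.902 (0.829 to 0.982) of 5C-Oct4GFP+ cells and naive-converted cells at 0.9 (0.812 to 0.998) of mES-Oct4GFP+ cells. Both GFP- libraries lay below them, and 5C-Oct4GFP- exceeded mES-Oct4GFP- by 2.6-fold (2.2 to 3.1). Chaf1b ran from 2.05 times the Chaf1a TPM in mES-Oct4GFP+ (1.83 to 2.29) to 0.946 times in mES-Oct4GFP- (0.789 to 1.13). Its counts were fractional, a mark of reads split between genes, in 6 of 7 libraries.

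Nasp, the carrier of the soluble H3-H4 pool, lies at chromosome 4, 116601052 to 116627941, on the minus strand, and had the highest level of the members. It was at 894.30 TPM in R1 ESCs-primed, 830.60 in primed and 589.60 in naive cells of 5C origin, 674.76 and 404.28 in the GFP+ and GFP- fractions of 5C medium, and 602.74 and 197.13 in those of mES medium. With 1885.15 or more reads behind each value, all neighbours in this order differed beyond counting error except mES-Oct4GFP+ and 5C-Oct4GFP+ (naive). The 2 primed libraries were highest and the 2 GFP- libraries lowest. Part of its reads was split with other genes in all 7 libraries, and stretches of 100 to 207 bases of its M21 transcripts match transcripts of 156 other genes.

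Asf1a and Asf1b encode paralogous H3-H4 donors. Asf1a (chromosome 10, 53596757 to 53609225, plus strand) is commonly tied to HIRA, and Asf1b (chromosome 8, 83955507 to 83970197, plus strand) to proliferating cells. Asf1a was at 36.92 TPM in GFP+ and 22.27 in GFP- cells from mES medium, 32.42 in GFP+ and 34.03 in GFP- cells from 5C medium, 31.65 after naive and 59.83 after primed conversion, and 65.27 in R1 ESCs-primed. Asf1b was at 45.10 TPM (GFP+) and 13.23 (GFP-) for mES medium, 33.04 (GFP+) and 31.29 (GFP-) for 5C medium, 48.51 for naive-converted and 27.81 for primed-converted cells, and 28.20 for R1 ESCs-primed. Asf1a was therefore high in the primed libraries and Asf1b in mES-Oct4GFP+ and the naive cells. Each gene's order had 3 steps, with 2 libraries on top, 4 in the middle and mES-Oct4GFP- below, and neighbours within a step did not differ beyond counting error. The ends of a step could differ, as Asf1b in primed-converted cells was at 0.842 (0.715 to 0.991) of its 5C-Oct4GFP+ level. In the M21 models Asf1a shares 1748 exonic bases with Mcm9 on the opposite strand. Mcm9 was at 5.75 to 9.87 TPM and was lowest in the primed libraries, where Asf1a was highest. The Asf1a counts were fractional in 0 of 7 libraries, so no split of its reads with another gene is seen in them.

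As a share of the summed TPM of the pair, Asf1b made up 60.5% after naive conversion (56.9 to 64.1), 55.0% in GFP+ (50.5 to 59.3) and 37.3% in GFP- cells (31.6 to 43.2) of mES medium, and 50.5% in GFP+ (46.7 to 54.3) and 47.9% in GFP- cells (43.5 to 52.3) of 5C medium. It was 31.7% after primed conversion (28.9 to 34.7) and 30.2% in R1 ESCs-primed (26.7 to 33.8). The 5C-Oct4GFP+ cells thus lay between the naive-cultured and primed libraries in this share, with intervals apart from both. This place was not theirs alone, as the intervals of 5C-Oct4GFP- and mES-Oct4GFP+ cells both overlapped that of 5C-Oct4GFP+ cells.

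**Figure D2:**
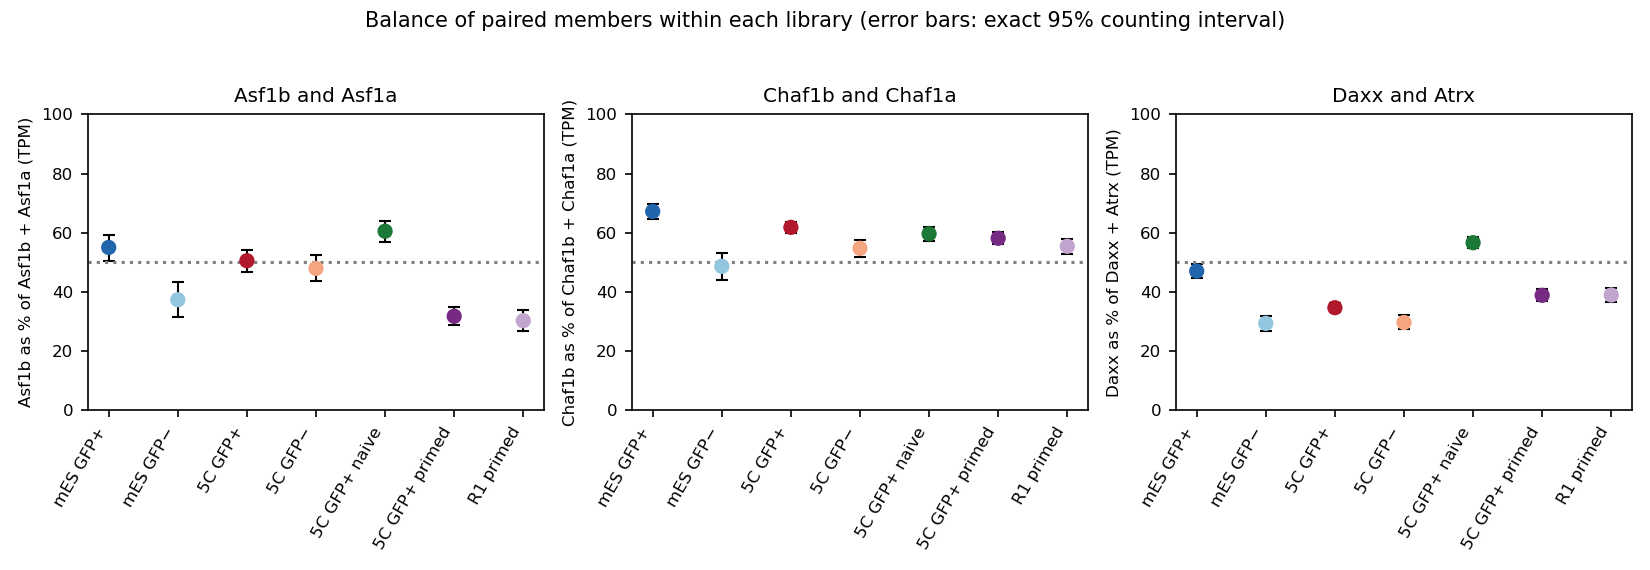
Share of the first-named gene in the summed TPM of a pair (y axis, percent, 0 to 100) in the 7 libraries (x axis), with points for single libraries, error bars for the exact 95% counting interval and a dotted line at 50%. Asf1b falls from 60.5% in 5C-Oct4GFP+ (naive) to 31.7% in 5C-Oct4GFP+ (primed), and Daxx exceeds Atrx only in 5C-Oct4GFP+ (naive).

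Hira, the H3.3 chaperone of active genes, lies at chromosome 16, 18877037 to 18970309, on the plus strand. It was at 83.40 TPM in R1 ESCs-primed, 78.71 in primed and 66.14 in naive cells of 5C origin, 76.99 and 69.71 in the GFP+ and GFP- fractions of 5C medium, and 66.19 and 41.37 in those of mES medium. Hira varied least of the members in TPM, and 6 libraries lay within 66.14 to 83.40. In the M21 models a same-strand gene, Gm28539, which is not listed in the tables, shares 2778 of its exonic bases. The Hira counts were fractional in 0 of 7 libraries. The summed TPM of Chaf1a and Chaf1b was 2.55 times that of Hira in GFP+ and 1.25 times in GFP- cells of mES medium, 2.23 and 1.72 times in those of 5C medium, and 2.59 times after naive conversion. In the primed libraries it was 2.09 and 2.0 times that of Hira.

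Daxx, the H3.3 chaperone of telomeres and silent repeats, lies at chromosome 17, 33909414 to 33915590, on the plus strand. It was at 81.74 TPM in GFP+ and 37.43 in GFP- cells from mES medium, 78.92 in GFP+ and 47.42 in GFP- cells from 5C medium, 91.13 after naive and 58.83 after primed conversion, and 62.42 in R1 ESCs-primed. The naive, mES-Oct4GFP+ and 5C-Oct4GFP+ libraries were highest, the primed ones intermediate and the GFP- ones lowest. Within the first 3 and within the primed pair, neighbours did not differ beyond counting error. The naive cells, however, were at 1.15 times (1.05 to 1.27) the 5C-Oct4GFP+ level.

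Atrx, the chromatin remodeller that works with DAXX, lies at chromosome X, 105797615 to 105929403, on the minus strand. It was at 92.12 TPM (GFP+) and 90.52 (GFP-) for mES medium, 149.07 (GFP+) and 112.67 (GFP-) for 5C medium, 69.76 for naive-converted and 92.77 for primed-converted cells, and 98.24 for R1 ESCs-primed. Atrx was highest in the 2 sorted fractions of 5C medium. In TPM both mES-medium fractions and the primed-converted library were not separated beyond counting error. On CPM mES-Oct4GFP+ was at 1.24 times (1.17 to 1.31) the mES-Oct4GFP- level. The TPM order of Atrx differed from that of its partner. The Daxx to Atrx ratio was 1.31 (1.21 to 1.41) after naive conversion against 0.887 (0.801 to 0.981) and 0.413 (0.367 to 0.465) in the GFP+ and GFP- fractions of mES medium.

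In the comparison of media within GFP- cells, the question is how cells that had not switched on the reporter differed between 5C and mES medium. All 8 members had higher values with 5C medium. The ratio was 2.6 (2.2 to 3.1) for Chaf1b, 2.37 (1.86 to 3.03) for Asf1b, 2.05 (1.94 to 2.17) for Nasp and 2.04 (1.8 to 2.31) for Chaf1a. These 4, both CAF-1 subunits and 2 of the 3 H3-H4 donors, were at least 2-fold higher and no member was 2-fold lower, where 9.68% of 15859 genes were 2-fold higher and 10.1% 2-fold lower. The other donor, Asf1a, was at 1.53 (1.28 to 1.83), and the H3.3 members were at 1.69 (1.51 to 1.88) for Hira, 1.27 (1.09 to 1.48) for Daxx and 1.24 (1.18 to 1.31) for Atrx. On CPM the Daxx interval held 1 (1.15, 0.985 to 1.34). The members' median difference was 0.87 on the log2(TPM + 1) scale against 0.035 for all genes. Chaf1a stood at the 2-fold limit, and 3 members were past it when the libraries were scaled by their median ratio.

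Between the sorted fractions in mES medium the members differed more. All 8 had higher values in GFP+ cells, and the interval for Atrx, 1.02 (0.959 to 1.08), held 1. Chaf1b was 4.5-fold higher (3.82 to 5.32), Asf1b 3.41-fold (2.69 to 4.35), Nasp 3.06-fold (2.9 to 3.23), Daxx 2.18-fold (1.89 to 2.52) and Chaf1a 2.08-fold (1.82 to 2.37). Hira and Asf1a had ratios of 1.6 (1.43 to 1.8) and 1.66 (1.38 to 2). So 5 members were 2-fold higher, where 17.9% of 16294 genes were 2-fold higher and 28.8% 2-fold lower, and the median difference of all 8 was 1.07 against -0.15 for all genes on the log2(TPM + 1) scale. On CPM 6 members were past 2-fold, with Hira at 2.05 (1.82 to 2.3), and the Atrx interval lay above 1 at 1.24 (1.17 to 1.31).

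In 5C medium the ratios between fractions were smaller for every member but Atrx, and that difference between media was not tested. Daxx, Nasp and Chaf1b were higher in GFP+ cells by 1.66-fold (1.47 to 1.89), 1.67-fold (1.61 to 1.73) and 1.62-fold (1.46 to 1.8). Atrx, Chaf1a and Hira followed at 1.32 (1.26 to 1.38), 1.21 (1.1 to 1.33) and 1.1 (1.01 to 1.21), while Asf1b at 1.06 (0.887 to 1.26) and Asf1a at 0.953 (0.818 to 1.11) did not differ beyond counting error. On CPM the Hira interval also held 1 (1.02, 0.936 to 1.12), and Asf1a was at 1.02 (0.875 to 1.19). No member was 2-fold higher or lower, where 8.45% of 15675 genes were 2-fold higher and 22.6% lower. The median difference was 0.34 for the members and -0.25 for all genes on the log2(TPM + 1) scale.

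Most markers of dividing cells differed in the same direction in these comparisons. The summed TPM of 13 proliferation genes (replication helicase, mitotic and S-phase genes) was 1055 and 2414 in the GFP- cells of mES and 5C medium and 3100 to 3420 in the other 5 libraries. Of these 13, 9 were 2-fold higher with 5C medium among GFP- cells, with a median difference of 1.09, and 12 were 2-fold higher in the GFP+ fraction of mES medium than in its GFP- fraction, with a median of 1.57 on the log2(TPM + 1) scale. Between the 5C fractions 1 of the 13 was 2-fold higher and the median was 0.34. There 11 of the 13 had higher and 2 had lower values in GFP+ cells. Mki67 was among the lower ones, at 90.78 TPM in GFP+ and 157.59 in GFP- cells. Of all genes, 9.68%, 17.9% and 8.45% were 2-fold higher in these comparisons, in the same order, and 10.1%, 28.8% and 22.6% lower. Of the 6 fibroblast markers, 4 were 2-fold lower and 1 was 2-fold higher in the GFP- cells of 5C medium than in those of mES medium, with none listed at 0 in either. The one that was higher was Thy1, at 53.29 against 8.73 TPM. In the GFP+ fraction all 6 were 2-fold lower than in the GFP- fraction of the same medium, with medians of -5.13 for mES and -4.33 for 5C medium on the log2(TPM + 1) scale. Of the 7 pluripotency markers, 5 were 2-fold higher with 5C medium among GFP- cells (median 2.71), and all 7 were 2-fold higher in the GFP+ fraction of mES (median 5.27) and of 5C medium (median 3.65). The part of cell division and of the fibroblast-marker and pluripotency-marker differences in those of the members was not tested.

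Within GFP+ cells the media gave smaller differences in both directions. Atrx was 1.62-fold higher (1.54 to 1.7) with 5C medium, and Chaf1a, Hira and Nasp had ratios of 1.19 (1.07 to 1.31), 1.16 (1.06 to 1.28) and 1.12 (1.08 to 1.16). Asf1b was lower at 0.733 (0.618 to 0.87), and Chaf1b at 0.937 (0.85 to 1.03), Daxx at 0.966 (0.862 to 1.08) and Asf1a at 0.878 (0.749 to 1.03) had intervals that held 1. No member was 2-fold changed, where 13.7% of 15196 genes were 2-fold higher and 13.5% lower. On CPM the Hira ratio was 0.941 (0.856 to 1.03).

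**Figure D3:**
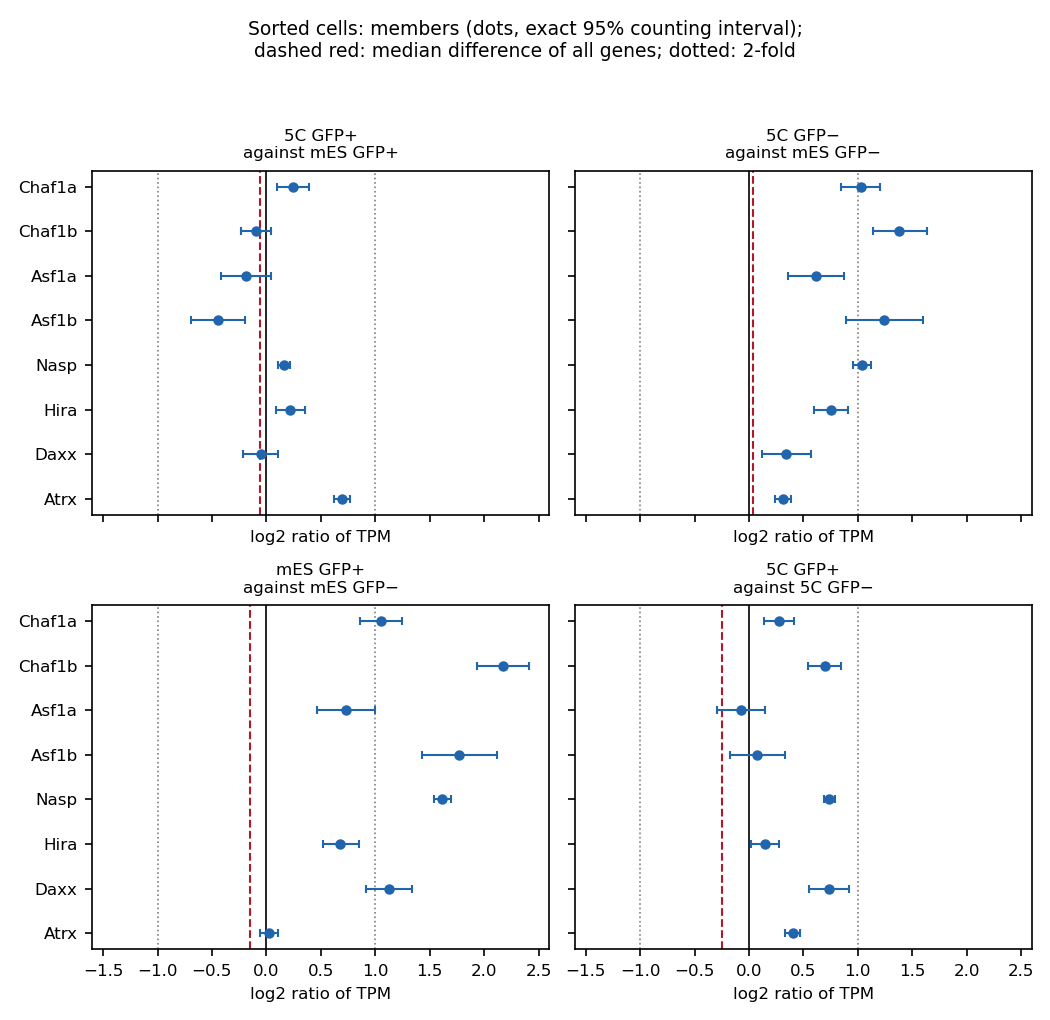
Log2 ratio of TPM (x axis) of the 8 members (y axis) in the 4 comparisons among sorted cells, with dots for the ratio of 2 single libraries, bars for its exact 95% counting interval, dotted lines at 2-fold and a dashed red line at the median of all genes on log2(TPM + 1). All dots lie to the right of 0 in both comparisons with mES-Oct4GFP-, and the largest is Chaf1b at 4.5-fold.

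After conversion of 5C-Oct4GFP+ cells some members moved in different directions in the 2 media, while Atrx was lower after both. Both comparisons share the 5C-Oct4GFP+ library. That library was sorted at passage 0 and the converted cells were at passage 20. The change of medium therefore cannot be told apart from the passages and the sort. In naive medium Asf1b was 1.47-fold higher (1.26 to 1.71) and Daxx 1.15-fold higher (1.05 to 1.27) than in 5C-Oct4GFP+ cells. Nasp at 0.874 (0.846 to 0.903), Hira at 0.859 (0.789 to 0.935) and Atrx at 0.468 (0.445 to 0.492) were lower. Atrx was the 1 member past 2-fold, where 10% of 14863 genes were 2-fold higher and 17.5% lower. It stood at 0.527 (0.502 to 0.554) on CPM, short of 2-fold, and no member passed 2-fold after median-ratio scaling. Chaf1a, Chaf1b and Asf1a had intervals that held 1, but on CPM Chaf1a was at 1.11 (1.02 to 1.2).

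In primed medium Asf1a was 1.85-fold higher (1.63 to 2.09) and Nasp 1.23-fold higher (1.2 to 1.27) than in 5C-Oct4GFP+ cells. Atrx at 0.622 (0.594 to 0.652), Daxx at 0.745 (0.674 to 0.824), Asf1b at 0.842 (0.715 to 0.991) and Chaf1b at 0.902 (0.829 to 0.982) were lower, while Chaf1a at 1.05 (0.973 to 1.14) and Hira at 1.02 (0.946 to 1.11) were level within counting error. No member was past 2-fold in TPM, where 13.7% of 15067 genes were 2-fold higher and 16.1% lower. On CPM 1 member, Atrx, was past it at 0.482 (0.46 to 0.505), Hira was higher at 1.14 (1.05 to 1.23), and the intervals of Asf1b (0.885, 0.752 to 1.04) and Chaf1b (0.922, 0.848 to 1.0) reached 1.

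Set directly against each other, the naive and primed cells of common origin differed most in the ASF1 pair. Asf1a was at 0.529 (0.463 to 0.604) of its primed level in naive cells and Asf1b at 1.74 times (1.5 to 2.03). Daxx was 1.55-fold higher in naive cells (1.4 to 1.71), and Nasp at 0.71 (0.688 to 0.732), Atrx at 0.752 (0.711 to 0.795) and Hira at 0.84 (0.775 to 0.911) were lower in TPM. On CPM the Hira difference was gone, at 0.993 (0.916 to 1.08), and that of Atrx turned, as given with the lengths. The CAF-1 subunits were level, with Chaf1a at 1 (0.925 to 1.09) and Chaf1b at 1.06 (0.971 to 1.17). None of the 8 passed 2-fold, where 16.7% of 15249 genes were 2-fold higher and 22.2% lower.

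Cells that reached a like state by other routes showed no member past 2-fold. Between 5C-Oct4GFP+ (primed) and R1 ESCs-primed the 8 ratios lay between 0.917 and 1.04, and Nasp at 0.929 (0.902 to 0.956) was the member whose interval did not reach 1. On CPM 3 intervals lay off 1, those of Nasp at 0.946 (0.919 to 0.973), Chaf1b at 1.11 (1.01 to 1.23) and Atrx at 0.899 (0.848 to 0.953). None was 2-fold changed, where 2.3% of 14600 genes were 2-fold higher and 5.09% lower. The 5C-Oct4GFP+ (naive) cells were at passage 20 and the mES-Oct4GFP+ cells at passage 0. Between them Chaf1a at 1.25 (1.13 to 1.38), Chaf1b at 0.9 (0.812 to 0.998) and Atrx at 0.757 (0.713 to 0.805) had intervals off 1. On CPM Daxx did too, at 1.36 (1.21 to 1.52) against 1.11 in TPM. None was 2-fold changed there, where 2.49% of 14477 genes were 2-fold higher and 6.27% lower.

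**Figure D4:**
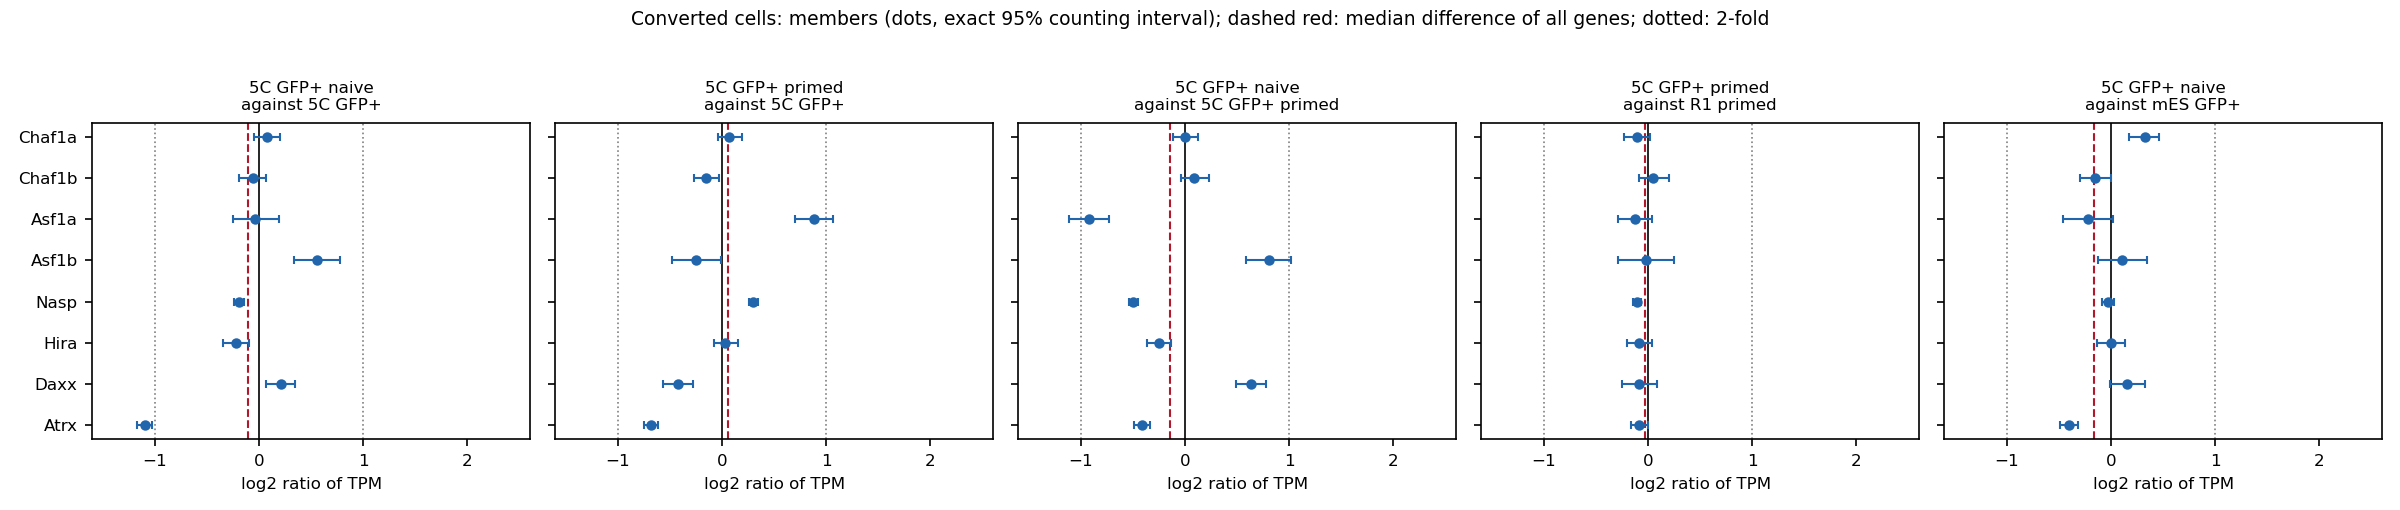
Log2 ratio of TPM (x axis) of the 8 members (y axis) in the 5 comparisons with converted cells and R1 ESCs-primed, drawn as dots for 2 single libraries with exact 95% counting intervals, dotted lines at 2-fold and a dashed red line at the median of all genes on log2(TPM + 1). Asf1a and Asf1b lie on opposite sides of 0 for naive against primed cells (0.529 and 1.74), and all 8 lie near 0 for the converted primed cells against R1 ESCs-primed (0.917 to 1.04).

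TPM divides reads by a transcript length that was estimated in each library, and for Atrx this length moved. Its mean length was 5256.12 bases in R1 ESCs-primed, 4897.31 in primed and 6767.73 in naive cells of 5C origin, 6308.86 and 6224.90 in the GFP+ and GFP- fractions of 5C medium, and 6804.96 and 6099.62 in those of mES medium. The 2 primed libraries were the shortest. Atrx is listed with 19 transcripts of 468 to 10275 bases in M21, and its longest to shortest mean length of 1.39 was above that of 89.9% of 5281 genes with several transcripts and at least 100 reads in every library, whose median was 1.13. Hira ranged from 2707.83 bases in 5C-Oct4GFP+ to 3369.84 in 5C-Oct4GFP+ (naive), a ratio of 1.24 above that of 75.4% of these genes, and Daxx had a ratio of 1.16. Chaf1a and Asf1a are listed with 1 transcript each, so their own mean length was the same in every library. Their TPM still depends on the lengths of other genes through the scaling to the library total. Asf1a between the 5C fractions was at 0.953 in TPM and 1.02 in CPM.

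The direction of Atrx between naive and primed cells turned with this choice. It was 0.752 (0.711 to 0.795) in TPM and 1.09 (1.03 to 1.16) in CPM. Hira in naive against 5C-Oct4GFP+ cells likewise was 0.859 (0.789 to 0.935) in TPM and 1.13 (1.04 to 1.23) without length. In CPM Atrx was still highest in 5C-Oct4GFP+, at 508.1 against 354.5 in the GFP- cells of that medium, 338.1 and 272.8 in the mES-medium fractions, 267.9 and 244.9 after naive and primed conversion and 272.5 in R1 ESCs-primed. Which transcripts made up each mean length is not given in the gene tables.

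**Figure D5:**
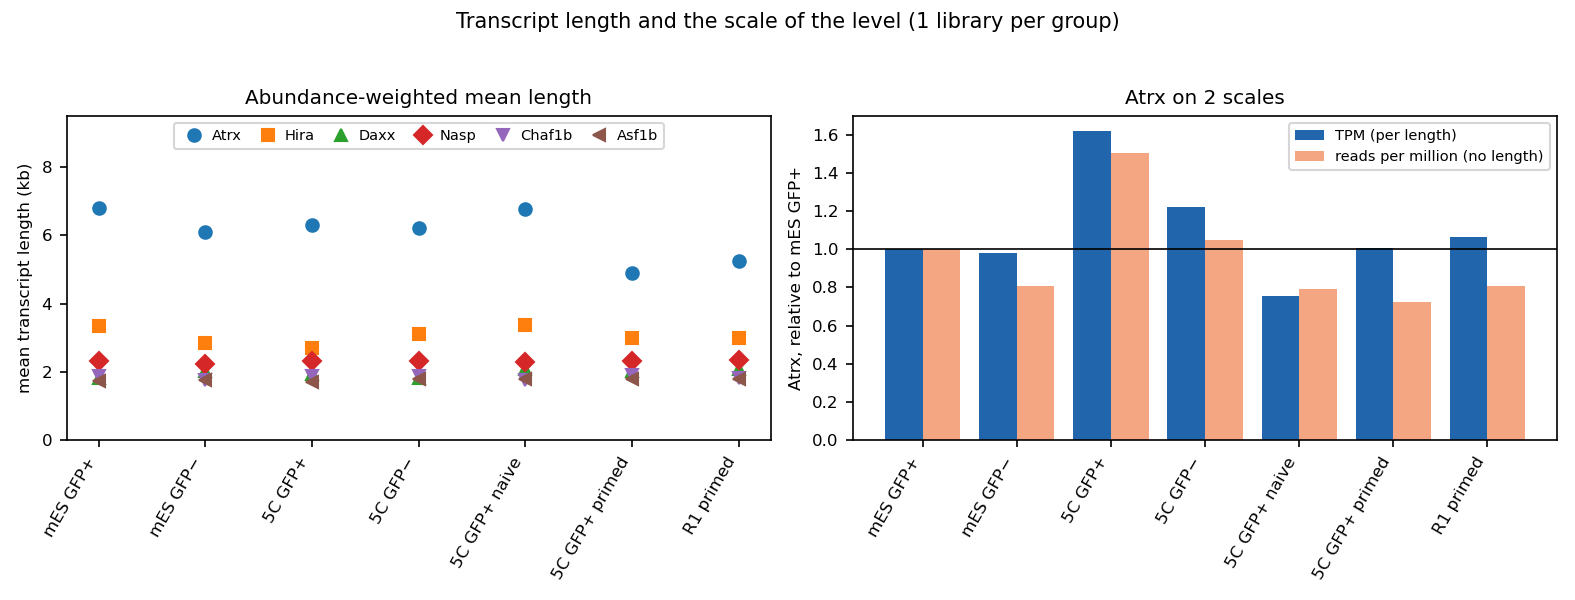
Left, abundance-weighted mean transcript length in kilobases (y axis, from 0) of the 6 members with several transcripts in each library (x axis). Right, Atrx relative to mES-Oct4GFP+ (y axis, from 0) as TPM and as CPM, showing that the primed libraries, with Atrx lengths of 4897.31 and 5256.12 bases, stand lower without the length than with it.

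The 36 other histone-supply genes, grouped by the complex they serve, put the members in context. Between 5C-Oct4GFP- and mES-Oct4GFP- cells 9 of the 36 were 2-fold higher and none lower, with a median difference of 0.48 on the log2(TPM + 1) scale, against a median of 0.87 for the members. Among all genes 9.68% were 2-fold higher and 10.1% lower. The 9 included 3 of 12 CAF-1 partners and H3-H4 supply genes, among them Cdan1, which binds ASF1, at 2.8-fold (2.37 to 3.3). They also included 4 of 5 genes for deposition of the centromeric histone CENP-A and 1 of 9 chaperones of H2A-H2B and histone variants. Sp100, a component of PML bodies, was at 6.08-fold (3.18 to 11.6). No gene of the HIRA complex and H3.3 group (Ubn1, Ubn2, Cabin1, H3f3a and H3f3b) was 2-fold changed in that comparison.

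Between the mES fractions 14 of the 36 were 2-fold higher in GFP+ cells and none lower, where 17.9% of all genes were 2-fold higher and 28.8% lower. Hat1, which acetylates new H4, was 7.38-fold higher (6.75 to 8.09) and Mcm2, a helicase subunit that holds H3-H4, 4.63-fold (4.31 to 4.98). All 5 genes of the HIRA complex and H3.3 group had lower values in mES-Oct4GFP+, none by 2-fold, with a median of -0.14 near that of all genes. Between the 5C fractions 2 were 2-fold higher, Hat1 at 2.4 (2.23 to 2.58) and Pml, the scaffold of PML bodies where DAXX gathers, at 2.4 (2.24 to 2.58), and 1 was lower, Sp100 at 0.121 (0.0529 to 0.246). Among all genes 8.45% were 2-fold higher and 22.6% lower between these fractions.

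Few of the 36 passed 2-fold elsewhere, where 2.3% to 16.7% of all genes were 2-fold higher and 5.09% to 22.2% lower. In GFP+ cells Sp100 alone was lower in 5C medium, at 1.18 against 5.31 TPM, a ratio of 0.222 (0.0917 to 0.495). It was higher after naive conversion at 3.66 (1.71 to 8.73). Pml was lower after primed conversion at 0.354 (0.33 to 0.379), the other 35 staying within 2-fold. Naive exceeded primed cells in Sp100, at 4.32 against 0.37 TPM with a ratio of 11.7 (3.4 to 115), and in Hat1 at 2.75 (2.61 to 2.89). None was past 2-fold between the primed cells and R1 ESCs-primed (35 of 36 measured above the minimum) or between naive and mES-Oct4GFP+ cells.

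The likeness of profiles was taken as Pearson's r of log2(TPM + 1) over the 7 libraries and is a description. Every profile was taken over the same differences in depth and cell state between these libraries. Chaf1a had r of 0.954 with Hira, 0.952 with Nasp and 0.924 with Chaf1b, whereas Asf1a and Asf1b had r of 0.249 and Daxx and Atrx -0.093. Asf1b had r of 0.891 with Daxx. Atrx stood apart, with r between -0.128 and 0.304 to the other 7 members. Among 13567 genes the profiles most like Chaf1a were Plk1, Trim59 and Isg20l2 (r from 0.99 to 0.991), those most like Chaf1b were Gm38312, Nup54 and Urb1 (0.992 to 0.996), and those most like Nasp were Gnl3, Ppih and Sdad1 (0.991 to 0.994). For Asf1b they were Mcmbp, Slc29a1 and Adam19 (0.985 to 0.996), and for Asf1a Scaf4, Hmgn1 and Eif4g2 (0.985 to 0.986). For Hira they were Mcrs1, Timm9 and Haus7 (0.983 to 0.988), for Daxx Ung, Sgsm3 and Pdhb (0.992 to 0.994), and for Atrx Pi4ka, Cntd1 and Lsm14b (0.962 to 0.971). With 7 points and this many genes, r near 1 is reached by many genes.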

How the data were processed

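Messenger RNA from 7 mouse cultures was profiled with 1 library per group. The authors deposited 1 RSEM gene table per library, with expected counts, TPM and FPKM for 29267 genes and RSEM's mean transcript length, and their processing notes name Bowtie, RSEM and mm10, while versions and the annotation release are not given in the sources used here. The deposited expected counts estimate how reads split between genes, and the deposited TPM and FPKM are normalized to library total and transcript length, so a change in estimated length changes them. Symbols came from GENCODE M21 (28756 IDs matched), and promoter windows from RefSeq, found for all 8 genes.

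Groups followed the labels. TPM was used on the log2(TPM + 1) scale with a pseudocount of 1, a minimum of 1 TPM in either library and a 2-fold limit. Ratio and level intervals used rounded expected counts (95%, counting error only). PCR reads are not independent molecules. All comparisons between single libraries are descriptions, and no test was run. Alternatives were a pseudocount of 0.1, FPKM, median-ratio scaling, a minimum of 5 TPM, none, a 1.5-fold limit and, chosen after seeing the data, reads scaled to library total without length (CPM). The members and lists were chosen with earlier results of these data known. All 8 members were named, with the 3 largest rises and falls past 2-fold among 36 other histone-supply genes per comparison and the 3 genes most like each member. A gene that this rule named is not reported here. The scripts were tested on simulated data. Python 3.11.15, pandas 2.3.3, numpy 2.4.6, scipy 1.17.1 and matplotlib 3.10.9 were used. Protein sequences were not used here.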

Additional observations from a re-analysis of the deposited data

Results flagged for a closer look

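For 4 members the 5C against mES difference pointed one way in GFP+ cells and the other way in GFP- cells. The share of all genes with such opposite signs was not worked out, so this count has no background. The median difference of all genes was -0.061 in GFP+ and 0.035 in GFP- cells on the log2(TPM + 1) scale. With 1 library per group, the difference between the 2 contrasts was not tested. The difference of differences, GFP+ minus GFP- on the log2(TPM + 1) scale, was -1.62 for Asf1b, -1.44 for Chaf1b, -0.77 for Asf1a and -0.38 for Daxx. Only for Asf1b did both ratios have counting intervals off 1, at 0.733 (0.618 to 0.87) in GFP+ and 2.37 (1.86 to 3.03) in GFP- cells. For Chaf1b, Asf1a and Daxx the GFP+ ratio held 1, and on reads scaled to library total without length (CPM) the Daxx ratio in GFP+ cells was 1.04 (0.929 to 1.17). Asf1a also had opposite signs for GFP+ against GFP- cells in the 2 media, at 1.66 (1.38 to 2) in mES and 0.953 (0.818 to 1.11) in 5C medium, with the same difference of -0.77. The opposite sign was lost under 3 alternatives, where the 5C difference of -0.07 became 0.03 with FPKM, 0.03 on CPM and 0.15 with median-ratio scaling.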

How the results depend on the processing

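No paired analysis was possible because each group had 1 library, so no replicate could be left out, and edgeR and DESeq2 were not run. Counts of members past 2-fold stayed within 1.5 times the reported ones with a pseudocount of 0.1, FPKM, a minimum of 5 TPM and no minimum. Of 72 single differences none changed sign with the pseudocount, 5 did with FPKM, 7 with median-ratio scaling and 7 without length, and these included Atrx in naive against primed cells and Hira in naive against 5C-Oct4GFP+ cells. Scale factors ran from 0.889 to 1.13. Median-ratio scaling moved the members' median from 0.34 to 0.56 for the 5C fractions (all genes from -0.25 to -0.04), from -0.12 to 0.06 for naive against primed cells (all genes from -0.14 to 0.04) and from -0.02 to 0.15 for naive against mES-Oct4GFP+ cells (all genes from -0.16 to -0.002), and left 0 members past 2-fold after naive conversion. Without length, that count was also 0 and the median 0.09 in place of -0.05, the naive against primed median was 0.06, and 1 member was past 2-fold after primed conversion. At 1.5-fold the count was 1 for the media in GFP+ cells, 3 for the 5C fractions, 2 after primed conversion and 3 for naive against primed cells, where 14.7% to 35.5% of all genes passed that limit in 1 direction. Counts of 98 to 248 reads behind Asf1b in mES-Oct4GFP- and mES-Oct4GFP+ cells limit its intervals most.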
